A study of Mus musculus with 47 samples.

Results

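The genes described here are 7 effector genes of cytotoxic lymphocytes: Gzma and Gzmb, which encode granzymes A and B, Prf1 (perforin), Fasl (Fas ligand), Nkg7, Ctsw (cathepsin W) and Srgn (serglycin). They were taken by gene symbol, as every probe set annotated to 1 of these symbols alone. That gave 9 of the 45101 probe sets on the array and 7 of the 18194 genes with a named probe set. Prf1 and Fasl have 2 probe sets each, and the brighter one stands for the gene. RNA of 2000 cells per sample from the bone marrow of adult C57Bl6 mice was amplified and hybridised to 47 arrays in 17 groups. No treatment or allele is named. The groups are ProB, NKmature and CD4 (2 arrays each), ETP (3), CLP (2), IgM+SP (2), PreB (4), GM (2), GMP (3), MkP (3), CFUE (3), MkE (4), PreCFUE (3), ProE (3), LMPP (5), STHSC (2) and LTHSC (2). Group names are used as the labels spell them. The labels expand no abbreviation and name no surface marker of the sort. Arrays of a group are biological replicates by their titles, but neither an animal nor a pool is named for any of them, and a p-value here speaks to the spread among the deposited arrays.

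Killer lymphocytes store perforin and granzymes in secretory granules and release them onto a target cell, where perforin opens the membrane and granzymes cleave proteins inside that start cell death. Serglycin is the proteoglycan that holds these enzymes in the granule, and blood cells of many kinds make it. Nkg7 is a protein of the granule membrane, and cathepsin W is a cysteine protease found in NK cells and cytotoxic T cells. Fas ligand kills by another route, from the surface of the killer, through the death receptor Fas. Natural killer cells develop in the bone marrow and carry this program when mature.

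Values are log2 of the deposited array intensity, which is relative within an array, so fewer cells of a type and less RNA per cell cannot be told apart in these bulk samples. Levels are compared between groups for the same probe set and not between genes. A level over 3.89, the median of all log2 values, is called above the filter here. A gene was called different between groups at a Benjamini-Hochberg adjusted p under 0.05 in limma and a change of at least 2-fold. Arrays of 1 group correlated with each other between 0.928 and 0.997, and 46 of the 47 correlated best with an array of their own group. By the female transcript Xist and the Y-linked Eif2s3y, 21 arrays carried Xist only, 19 carried Eif2s3y only and 7 carried both, among them both NKmature arrays, and PreB was the sole group with arrays of both single classes.

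Of the 7 genes, 6 have a start site in the RefSeq promoter table (GRCm38.p6), and Ctsw is not listed there. The 250 bases before the start are shown for 4 of them, picked after the levels were seen to hold genes high in few groups and genes high in many. Gzma was high on few arrays, Prf1 was high in ProB, NKmature and CD4, Nkg7 ran through early myeloid and stem groups too, and Srgn was high on every array. Capitals mark matches on either strand to 3 short motifs, the letters TGTGGT bound by Runx factors, AGGTGTGA bound by T-box factors and GGAAGT bound by Ets factors. The Gzma window lies on the minus strand at chr13:113100982-113101231, the Prf1 window on the plus strand at chr10:61297586-61297835, the Nkg7 window on the plus strand at chr7:43436888-43437137 and the first Srgn window on the minus strand at chr10:62527446-62527695.
Gzma: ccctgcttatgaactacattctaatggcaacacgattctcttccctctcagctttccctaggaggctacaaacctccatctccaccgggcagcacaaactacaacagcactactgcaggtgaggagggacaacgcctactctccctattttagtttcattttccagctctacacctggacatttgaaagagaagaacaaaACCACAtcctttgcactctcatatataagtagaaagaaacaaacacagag
Prf1: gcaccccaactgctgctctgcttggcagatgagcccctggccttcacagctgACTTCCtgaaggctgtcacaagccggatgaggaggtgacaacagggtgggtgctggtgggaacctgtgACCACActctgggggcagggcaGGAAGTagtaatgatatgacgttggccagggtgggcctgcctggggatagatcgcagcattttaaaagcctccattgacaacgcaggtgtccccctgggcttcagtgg
Nkg7: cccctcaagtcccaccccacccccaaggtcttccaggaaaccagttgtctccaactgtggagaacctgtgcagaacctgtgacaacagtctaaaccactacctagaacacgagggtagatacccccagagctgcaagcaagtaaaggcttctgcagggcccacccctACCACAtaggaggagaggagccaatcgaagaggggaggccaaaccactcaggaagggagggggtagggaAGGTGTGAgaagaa
Srgn: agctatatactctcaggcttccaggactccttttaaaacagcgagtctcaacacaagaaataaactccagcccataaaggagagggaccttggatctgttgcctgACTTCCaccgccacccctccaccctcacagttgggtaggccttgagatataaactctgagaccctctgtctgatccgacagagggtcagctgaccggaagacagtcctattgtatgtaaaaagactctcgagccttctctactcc
The annotated Prf1 gene begins at chr10:61297751, inside the Prf1 window, so the Prf1 start of the promoter table lies within the gene. The Runx letters lie 50 to 45 bases before the Gzma start, 130 to 125 bases before the Prf1 start and 83 to 78 bases before the Nkg7 start. Gzmb holds them at 93 to 88 and at 34 to 29 bases before its start, the second Srgn window at 202 to 197 bases, and they are found in 14.05% of the 32851 promoters of the table. Nkg7 alone of the 6 holds the T-box letters, 14 to 7 bases before its start, and 1.12% of all promoters hold them. The Ets letters, found in 19.74% of promoters, occur at 2 places in Prf1, at 1 place in Fasl and at 1 place in the first Srgn window. A match shows that the letters are there and nothing about binding, and the motifs were picked with the sequences in view.

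Gzma, a tryptase-like granzyme, had the widest range of the 7 genes. Its log2 level was 11.52 and 11.58 on the arrays labelled ProB, 13.10 and 13.15 on the NKmature arrays, and 9.63 and 9.94 on PreB replicates 3 and 4. On PreB replicates 1 and 2 it was 3.93 and 3.94. Every other array lay between 3.75 and 4.97, with the 2 CD4 arrays (4.97 and 4.67) and 1 CLP array (4.91) at the top of that range. So 6 arrays of 3 groups stood clear of all the others, and PreB was split in the middle. In the order of group means, the arrays of CD4 and each group below it overlapped those of the next lower group. Gzma was over the filter on 40 of 47 arrays, mostly by less than 1 log2 unit.

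**Figure D1:**
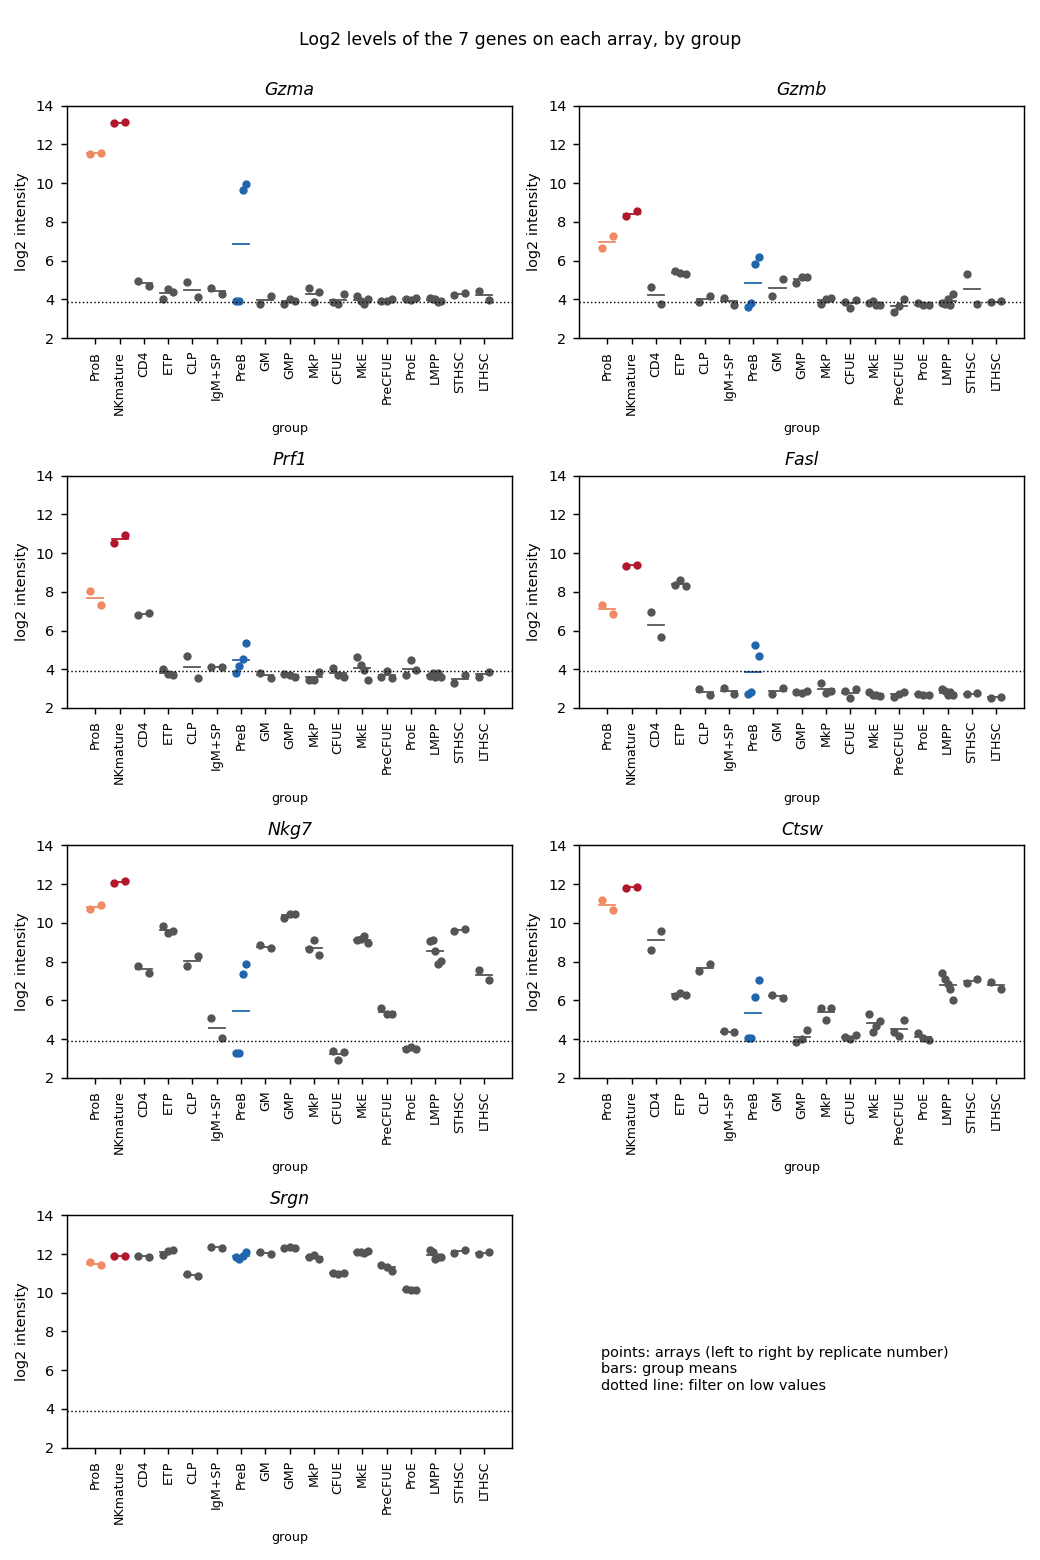
Log2 intensity of the 7 genes (vertical axis, 1 panel a gene) on all 47 arrays, by group (horizontal axis), with points for arrays, bars for group means and a dotted line at the filter of 3.89. Gzma, Gzmb, Prf1, Fasl, Nkg7 and Ctsw are highest in NKmature with ProB or ETP next, PreB splits into 2 low and 2 higher arrays for Gzma, Nkg7 and Ctsw, and Srgn stays above 10 on every array.

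Gzmb, the granzyme that cleaves after aspartate and cuts caspase substrates, was likewise highest in NKmature with ProB next, and the groups after these came in another order than for Gzma. Its log2 level was 6.67 and 7.26 on the ProB arrays and 8.28 and 8.55 on the NKmature arrays. The 3 ETP arrays had 5.46, 5.34 and 5.30, the GM arrays 4.15 and 5.04, and the 3 GMP arrays 4.87, 5.13 and 5.18. PreB again was split, with 5.81 and 6.20 on replicates 3 and 4 against 3.62 and 3.82 on replicates 1 and 2. STHSC had 5.30 on 1 array and 3.75 on the other. Outside NKmature and ProB, the groups with every array over the filter were ETP, GMP and GM. From GMP downwards each group overlapped its next lower neighbour, and 12 of 17 group means were over the filter. A granzyme probe set can bind RNA of related granzymes too, and whether the lower levels in ETP, GMP and GM are of Gzmb itself was not tested.

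Prf1 encodes perforin, the pore-forming protein of the granule. Its used probe set read 7.33 to 8.03 on the 2 ProB arrays, 10.53 and 10.92 on the NKmature arrays, and 6.81 and 6.90 on the CD4 arrays. The PreB arrays had 3.80, 4.19, 4.55 and 5.34 for replicates 1 to 4. All remaining arrays were at 4.68 or lower. Perforin thus separated 3 groups with no overlap between neighbours, and replicate 4 was the one PreB array that stood above the arrays of every lower group. The other Prf1 probe set was dim, over the filter on 5 arrays only, read 3.33 and 3.69 in NKmature, and correlated with the used one at 0.08 over the 47 arrays. Its highest group by mean was ETP, with all 3 arrays over the filter at 4.03 to 4.56.

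Fasl encodes the death ligand of the Fas receptor. Its level was 7.30 and 6.88 on the ProB arrays and 9.35 and 9.39 on the NKmature arrays. CD4 arrays had 6.94 and 5.65, and ETP arrays 8.36, 8.58 and 8.31, which made ETP the group next to NKmature. PreB replicates 3 and 4 had 5.25 and 4.67, and every remaining array, PreB replicates 1 and 2 included, lay at 3.31 or lower, under the filter. ETP is the one group where Fasl was high while Gzma (4.01, 4.54 and 4.37) and Prf1 (4.03, 3.75 and 3.71) stayed near the filter. The other Fasl probe set was dim, over the filter on 4 arrays only, with overlapping levels in ProB (3.09 and 4.18), NKmature (3.86 and 4.30) and ETP (3.54 to 4.80), and correlated with the used one at 0.77 over the arrays.

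Nkg7, the granule membrane protein, was bright well beyond ProB (10.72 and 10.91) and NKmature (12.06 and 12.14). CD4 had 7.77 and 7.43, ETP 9.48 to 9.86 and CLP 7.76 and 8.30. GM had 8.85 and 8.70, GMP 10.28, 10.47 and 10.45, MkP 8.33 to 9.13 and MkE 8.97 to 9.33. LMPP had 7.90 to 9.10, STHSC 9.60 and 9.68, and LTHSC 7.55 and 7.05. By mean, GMP followed NKmature and ProB with no overlap of arrays on either side, then STHSC and ETP, which overlapped each other, and MkE. The CD4 arrays lay below all arrays of ETP, GM, GMP, MkP, MkE and STHSC. PreB was split again, 7.37 and 7.89 for replicates 3 and 4 against 3.26 and 3.30 for replicates 1 and 2. It was lower in the PreCFUE, CFUE and ProE groups, with 5.28 to 5.59 in PreCFUE, 2.90 to 3.39 in CFUE and 3.47 to 3.58 in ProE.

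Ctsw, the cathepsin of NK and cytotoxic T cells, was high in ProB (11.21 and 10.69), NKmature (11.81 and 11.86) and CD4 (8.61 and 9.58). ETP had 6.24 to 6.40 and CLP 7.52 and 7.87. The 5 LMPP arrays had 6.02 to 7.39, STHSC 6.92 and 7.12, and LTHSC 6.97 and 6.61. GM had 6.28 and 6.14, while GMP, whose Nkg7 mean came right after NKmature and ProB, lay near the filter for Ctsw, at 3.83, 3.99 and 4.49, as did CFUE (4.00 to 4.21) and ProE (3.94 to 4.33). The 2 genes therefore ordered the early groups differently, and the arrays of NKmature, ProB, CD4 and CLP did not overlap their next lower neighbour. PreB had 6.15 and 7.04 on replicates 3 and 4 against 4.06 and 4.07 on replicates 1 and 2.

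Srgn, the granule proteoglycan, was bright on all 47 arrays, between 10.12 and 12.38. NKmature arrays (11.88 and 11.89) lay in the middle of the range. GMP (12.33 to 12.37) and IgM+SP (12.38 and 12.31) were highest. The lowest groups were ProE (10.12 to 10.20), CLP (10.94 and 10.84) and CFUE (10.96 to 11.03), and neither CFUE nor CLP overlapped the next lower group. Its group means spanned 2.18 log2 units, against 4.74 to 9.21 for the other 6 genes. All 7 genes differed among the 17 groups in limma's moderated F-test, at adjusted p from 9.55e-21 for Prf1 to 5.62e-11 for Gzmb, and so did 90.3% of all 13949 genes tested.

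NKmature was set first against CD4. Of the 7 genes, 6 were higher and none lower, where 11.8% of all genes tested were called higher and 8.60% lower. Gzma was higher by 8.30 ± 0.99 (log2, SE, here and below; adjusted p 1.70e-08), Nkg7 by 4.50 ± 0.78 (2.20e-05) and Gzmb by 4.19 ± 0.49 (1.06e-08). Perforin was higher by 3.87 ± 0.35 (1.51e-11), Fasl by 3.07 ± 0.44 (6.93e-07) and Ctsw by 2.74 ± 0.54 (1.33e-04). The arrays of the groups did not overlap for any of these 6. Srgn differed by 0.01 ± 0.16 with a 95% interval of -0.32 to 0.34, and its sign turned with the scaling (-0.04 after quantile normalization). The median difference of the 7 was 3.87, and that of all genes 0.01. NK marker genes moved with these genes, 7 of 7 being called higher, with a mean level of 10.34 and 10.39 on NKmature arrays and 4.46 and 4.36 on CD4 arrays. So did markers of neutrophils and monocytes, with 7 of 9 called higher and a mean of 8.64 and 8.83 in NKmature against 4.90 and 5.19 in CD4, and the part of such cells in the result was not tested. Against CLP and ETP, 7 and 6 of the 7 NK markers and 7 and 5 of these 9 were called higher in NKmature, with none of the 7 and 2 of the 9 lower each time. With the Xist and Eif2s3y class of the arrays as a block, whose Xist against Eif2s3y term the PreB arrays alone set, 3 of the 6 calls remained, with Gzma at 2.36 and Gzmb at 1.82, and Fasl (0.99), Nkg7 (0.85) and Ctsw (0.66) were not called. With the mean of all probe sets of a gene in place of the brightest, Prf1 was higher by 1.97 and Fasl by 1.85, both still called.

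Against CLP, 6 of the 7 genes were higher in NKmature and none lower, where 29.1% of all genes were called higher and 12.1% lower. Prf1 was higher by 6.61 ± 0.35 (adjusted p 6.85e-18) and Fasl by 6.53 ± 0.44 (8.44e-15), while Gzma differed by 8.62 ± 0.99 (4.55e-09). Gzmb (4.38 ± 0.49), Ctsw (4.14 ± 0.54) and Nkg7 (4.07 ± 0.78) lay closer together. Srgn was 0.99 ± 0.16 higher (2.83e-06), just under the 2-fold mark, and its value depended on the scaling, at 0.32 after quantile normalization (adjusted p 0.0879) and 1.20, past the mark, after centring on array medians. The mean of all probe sets gave 3.41 for Prf1 and 3.65 for Fasl, both called. The CLP arrays had the highest medians of the 47 (intensity 16.9 on both) and the lowest upper quartiles (50.2 and 50.7). Of all calls 70.6% were higher in NKmature, a share of 50.1% after quantile normalization. The median of all genes moved from 0.17 to -0.09 with that scaling and to 0.38 with centring. Among the 7 genes the median was 4.38.

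Against ETP, 5 genes were higher in NKmature and none lower, where 15.0% of all genes were called higher and 10.7% lower. These were Gzma (8.82 ± 0.91, adjusted p 4.03e-10), Prf1 (6.90 ± 0.32, 6.21e-20), Ctsw (5.53 ± 0.49, 1.10e-11), Gzmb (3.05 ± 0.45, 7.61e-07) and Nkg7 (2.46 ± 0.72, 5.78e-03). Fasl was not among them, at 0.95 ± 0.40 (adjusted p 0.0607). Its arrays in the groups did not overlap, and its adjusted p was 7.34e-04 with the PreB arrays left out of the fit, still at a change under 2-fold. Prf1 was higher by 3.04 with the mean of all probe sets, still called. Over the 7 genes the median was 3.05, and that of all genes 0.02. These comparisons share the NKmature arrays. Set against the equally weighted mean of the other 16 groups, NKmature was higher in 6 of the 7 genes, at 4.02 ± 0.36 for Gzmb to 8.31 ± 0.72 for Gzma, with 13.4% of all genes called higher and 8.09% lower. Of all calls 62.4% were higher, and 51.4% after quantile normalization. The 6 remained called with the ProB arrays and PreB replicates 3 and 4 left out, at 4.27 for Gzmb to 8.95 for Gzma. The mean of all probe sets gave 3.25 for Prf1 and 3.34 for Fasl, and the class block 5.48 for Gzma, all called.

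**Figure D2:**
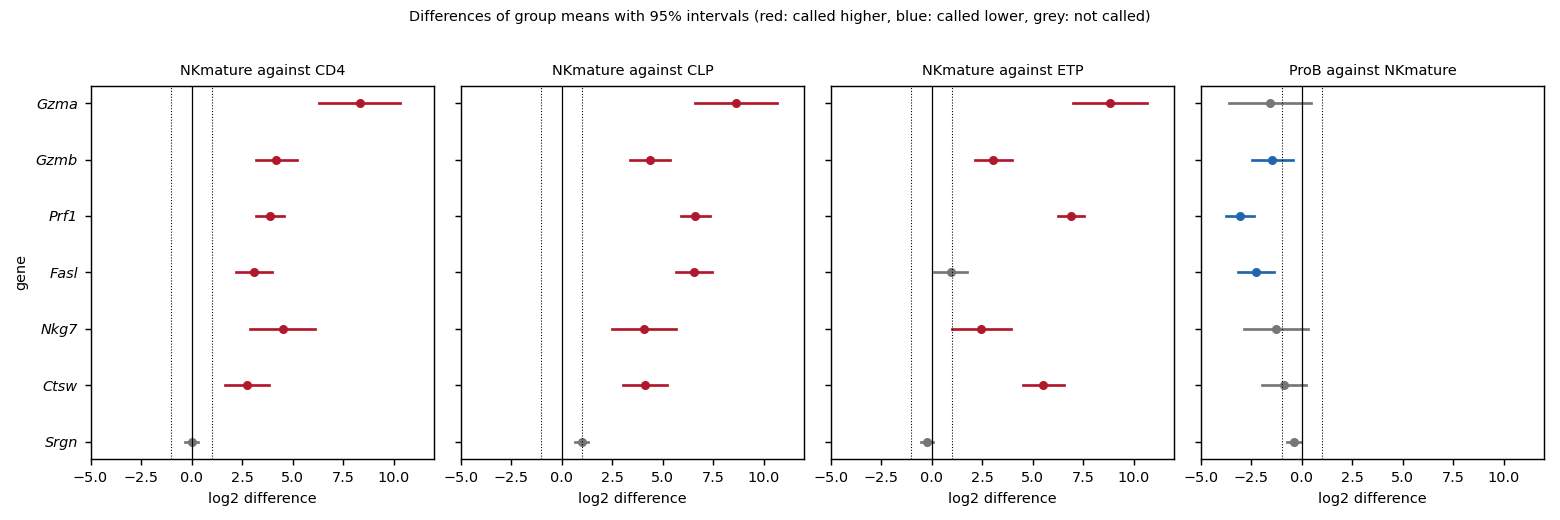
Difference of group means (horizontal axis, log2) with its 95% interval for each of the 7 genes (vertical axis) in 4 comparisons, with dotted lines at 2-fold. In the 3 NKmature panels, 6, 6 and 5 genes are called higher, and in ProB against NKmature Gzmb, Prf1 and Fasl are called lower.

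The arrays labelled ProB carried 6 of the 7 genes at levels second to NKmature, or for Fasl to NKmature and ETP. The exception was Srgn, whose ProB mean (11.50) ranked 13 of the 17 groups. Against PreB, 6 of the 7 genes were higher in ProB and none lower, where 9.13% of all genes were called higher and 11.2% lower. The differences were 5.62 ± 0.47 for Ctsw (adjusted p 2.84e-12), 5.36 ± 0.68 for Nkg7 (5.13e-08), 4.69 ± 0.86 for Gzma (3.93e-05), 3.23 ± 0.38 for Fasl (1.18e-08), 3.21 ± 0.30 for Prf1 (5.01e-11) and 2.11 ± 0.43 for Gzmb (1.52e-04). Srgn was 0.40 ± 0.14 lower (0.0245), under 2-fold. The median of the 7 was 3.23, and that of all genes 0.05. Against PreB replicates 1 and 2 alone, Gzma was higher by 7.61 and Nkg7 by 7.54. Against replicates 3 and 4 alone, Gzma was higher by 1.76 and Nkg7 by 3.19, and Gzmb, at 0.96, was no longer called. In a fit of these 2 groups alone Gzma, Gzmb and Nkg7 were not called (adjusted p 0.175, 0.141 and 0.0564). The mean of all probe sets gave 1.33 for Prf1 and 2.03 for Fasl, both called.

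The markers go against the ProB label. All 7 NK markers measured were over the filter on both ProB arrays, with a mean of 8.23 and 8.45, against 3.00 to 5.45 on the PreB arrays. Plasmacytoid dendritic markers averaged 10.87 and 11.54 on the ProB arrays and 7.78 to 8.55 on the PreB arrays. Siglech, Bst2, Tcf4 and Ly6d were called higher in ProB, Ly6d with overlapping arrays. Spib was not called (10.83 in ProB against 11.37 in PreB) and was also high in IgM+SP (11.00). B cell markers averaged 6.95 and 6.07 on the ProB arrays and 9.10 to 10.09 on the PreB arrays, and 9 of 9 were called lower in ProB. Yet 8 of 9 were over the filter by their ProB mean, and the averages were above those of NKmature (3.70 and 3.71) and CD4 (4.32 and 4.53). T cell markers averaged 5.59 and 5.99 on the ProB arrays and 3.75 to 3.98 on the PreB arrays. The part of any of these cells in the levels of the killing genes was not tested.

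Set against NKmature, the ProB arrays were lower in 3 of the 7 genes and higher in none, where 14.4% of all genes were called lower and 8.70% higher. Prf1 fell by 3.05 ± 0.35 (adjusted p 7.04e-09), Fasl by 2.28 ± 0.44 (9.38e-05) and Gzmb by 1.45 ± 0.49 (0.0211), a call that ended when either NKmature array or ProB replicate 1 was left out (adjusted p 0.0577, 0.122 and 0.167). Gzma (-1.57 ± 0.99) and Nkg7 (-1.28 ± 0.78) were not called, and both were with the PreB arrays left out (1.98e-06 and 1.51e-03). The class block turned Gzma to 4.36, Gzmb to 0.93 and Nkg7 to 2.36, and ended the Fasl call (-0.19, adjusted p 0.765). With the mean of all probe sets, Prf1 fell by 1.63 and Fasl by 1.36, both called. As a share of the geometric mean in NKmature, ProB replicates 1 and 2 had 32.8% and 34.3% of Gzma, 29.9% and 44.8% of Gzmb, 15.4% and 9.5% of Prf1, 23.8% and 17.8% of Fasl, 38.5% and 44.0% of Nkg7 and 64.7% and 45.2% of Ctsw. Perforin was thus the lowest of these 6 shares on both arrays. Ctsw was the highest on replicate 1, while on replicate 2 Ctsw, Gzmb and Nkg7 lay too close together to rank. The same share for the NK markers ran from 9.0% (Klrc1, replicate 1) to 51.97% (Klrk1, replicate 1).

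**Figure D3:**
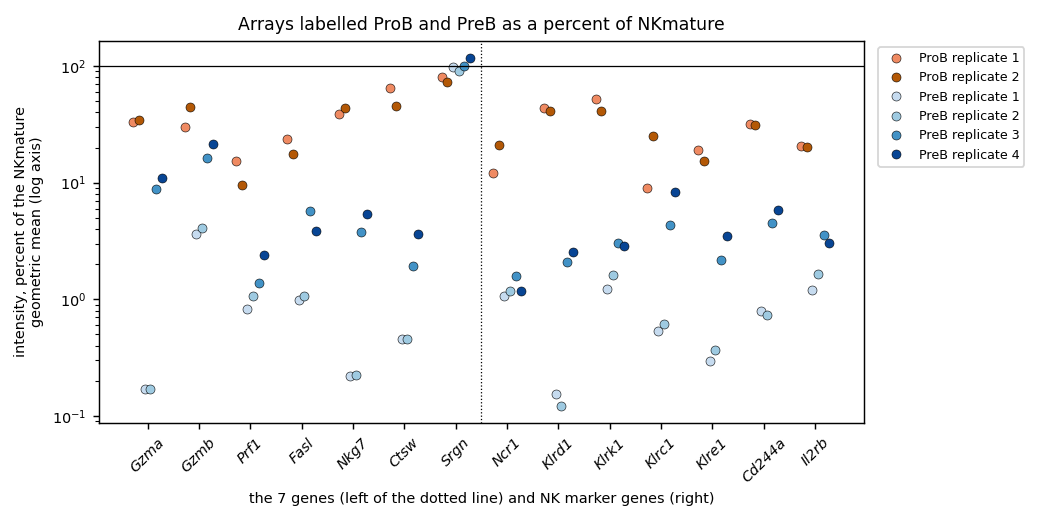
Intensity on each ProB and PreB array as a percent of the NKmature geometric mean (vertical axis, log scale) for the 7 genes and 7 NK marker genes (horizontal axis), with 1 point an array. ProB points lie between 9.0% and 80.1%, PreB replicates 3 and 4 lie above replicates 1 and 2 for every gene shown, and Srgn lies between 73.1% and 117%.

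The PreB group holds arrays of both kinds. Replicates 3 and 4 had 8.86% and 11.0% of the NKmature level of Gzma, 16.4% and 21.4% of Gzmb, 3.77% and 5.40% of Nkg7, 5.74% and 3.86% of Fasl, 1.95% and 3.61% of Ctsw and 1.38% and 2.39% of Prf1. Replicates 1 and 2 had 0.171% and 0.172% of Gzma and 0.218% and 0.224% of Nkg7, which are upper limits, since Nkg7 was under the filter and Gzma less than 0.1 log2 units over it on these arrays. On replicates 3 and 4, 6 of 7 NK markers were over the filter, with means of 5.24 and 5.45, and on replicates 1 and 2 none was, with means of 3.00 and 3.15. Neutrophil and monocyte markers averaged 8.10 and 8.16 on replicates 3 and 4 against 4.20 and 5.46 on replicates 1 and 2, and B cell markers 9.25 and 9.10 against 10.09 and 10.02. Megakaryocyte markers also varied among the PreB arrays, with averages from 3.99 to 6.87. Replicates 3 and 4 carry Eif2s3y and replicates 1 and 2 carry Xist, so the source of the split cannot be told apart from that class. The split feeds the shared spread of the fit. PreB gave 96.1% of the residual sum of squares of Gzma, 86.8% of Nkg7, 76.5% of Fasl, 67.2% of Ctsw, 63.9% of Gzmb, 33.7% of Prf1 and 17.4% of Srgn.

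IgM+SP was set against PreB, from which 1 gene was lower and none higher, where 9.43% of all genes were called lower and 3.40% higher. That gene was Gzma, which fell by 2.42 ± 0.86 (adjusted p 0.0389), but its IgM+SP arrays (4.61 and 4.28) lay between the low and the high PreB arrays. Without PreB replicates 3 and 4 the difference was 0.51 ± 0.23 (0.0853), and Nkg7, at 5.11 and 4.03 in IgM+SP, was higher by 1.29 ± 0.31 (1.03e-03). Without replicates 1 and 2, 5 genes were lower, Gzma by 5.34 among them. The call also ended when either IgM+SP array was left out, without PreB replicate 3 (adjusted p 0.151) or replicate 4 (-1.39, 0.161), and with the replicate number as a block (-1.86, adjusted p 0.0966). Of all calls 26.5% were higher, and 39.5% after quantile normalization. Among the 7 genes the median was -0.94, and that of all genes -0.02. Neutrophil and monocyte markers averaged 7.42 and 8.63 on the IgM+SP arrays, with 9 of 9 over the filter by their group mean. The part of such cells in the IgM+SP levels, those of Srgn and Nkg7 included, was not tested.

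CD4 and ETP differed in which killing genes they had. CD4 was higher in 2 genes and lower in 3, where 13.9% of all genes were called higher and 12.5% lower. Prf1 was higher by 3.03 ± 0.32 (adjusted p 4.77e-10) and Ctsw by 2.79 ± 0.49 (1.64e-05). Fasl fell by 2.12 ± 0.40 (4.49e-05), Nkg7 by 2.04 ± 0.72 (0.0221) and Gzmb by 1.14 ± 0.45 (0.0420). None of these 5 had overlapping arrays. The Nkg7 call ended without CD4 replicate 1 (adjusted p 0.0662), CD4 replicate 2 (0.132) or ETP replicate 1 (0.0586). The Gzmb call ended without CD4 replicate 2 (-0.70, adjusted p 0.404), without any 1 ETP array, with no filter (-1.14, 0.0553), after quantile normalization (-1.06, 0.0549) and with the replicate block (-1.02, 0.0636). With the PreB arrays left out all 5 stayed called, Gzmb at 1.65e-03 and Nkg7 at 3.49e-07, while the class block turned Gzmb to 1.21 and Nkg7 to 1.84 and brought Fasl to 0.00. The mean of all probe sets gave 1.07 for Prf1 and -1.33 for Fasl, both called. Gzma (0.51 ± 0.91) and Srgn (-0.24 ± 0.15) were not called. Over the 7 genes the median was -0.24, and that of all genes 0.00. T cell markers averaged 8.70 and 8.72 on the CD4 arrays and 4.36 to 4.61 on the ETP arrays, with 8 of 9 called higher, and 1 of 7 NK markers was called higher and 1 lower. Of the mast cell and basophil markers tested, Cpa3 (-6.88), Mcpt8 (-1.67) and Ms4a2 (-1.05) were lower in CD4, and Hdc (0.22) was not called. Neutrophil and monocyte markers averaged 4.90 and 5.19 on the CD4 arrays and 6.20 to 6.64 on the ETP arrays. The part of any of these cells in these differences was not tested.

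ETP was higher than CLP in 3 genes and lower in 1, where 22.0% of all genes were called higher and 7.16% lower. Fasl was higher by 5.58 ± 0.40 (adjusted p 2.67e-13), Gzmb by 1.33 ± 0.45 (0.0135) and Srgn by 1.22 ± 0.15 (2.65e-08). Ctsw fell by 1.39 ± 0.49 (0.0184). None of the 4 had overlapping arrays. Nkg7 was not called at 1.61 ± 0.72 (0.0590), and was with the PreB arrays left out (2.11e-05). The Gzmb call ended without CLP replicate 1 (1.18, adjusted p 0.0963), the Ctsw call without CLP replicate 2 (-1.21, 0.128), and the Srgn change fell to 0.73, under 2-fold, after quantile normalization, where Ctsw fell by 2.10. Fasl was higher by 3.13 with the mean of all probe sets, still called. Of all calls 75.5% were higher, a share of 50.8% after quantile normalization and 87.1% after centring, and the median of all genes, 0.09, moved to -0.09 and 0.29. The median of the 7 genes was 1.22. Of the NK markers 2 of 7 were higher in ETP, Cd244a (2.16) and Klrd1 (1.97), with a mean of 4.68 to 4.88 on ETP arrays and 4.31 and 4.47 on CLP arrays. B cell markers averaged 4.09 to 4.46 on the ETP arrays and 7.83 and 7.90 on the CLP arrays, and 8 of 9 were called lower. Among 4 mast cell and basophil markers tested, Cpa3 was higher (6.51) and Hdc lower (-1.49). The part of these cells was not tested.

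Among GM, GMP and MkE, Nkg7, Gzmb and Ctsw varied, while Gzma, Prf1 and Fasl stayed at 4.62 or lower on every array. GMP was higher than MkE in Gzmb, by 1.27 ± 0.38 (adjusted p 8.70e-03), and in no other of the 7, where 8.77% of all genes were called higher and 6.79% lower. Nkg7 was 1.26 ± 0.60 higher in GMP with no overlap of arrays (adjusted p 0.120, or 7.54e-05 with the PreB arrays left out). GM was higher than GMP in Ctsw, by 2.11 ± 0.49 (2.63e-03), with 5.00% of all genes called higher and 2.95% lower. Nkg7 was 1.63 ± 0.72 lower in GM, again with no overlap (0.154, or 8.31e-05 with the PreB arrays left out). The GM arrays thus lay above the GMP arrays for Ctsw and below them for Nkg7. With the class block Gzmb (-1.02) and Nkg7 (-3.09) in GMP against MkE, and Nkg7 (2.72) in GM against GMP, took the other sign. Mast cell and basophil markers were higher in 4 of 4 and neutrophil and monocyte markers in 6 of 9 cases in GMP against MkE, and lower in 3 of 4 and 2 of 9 in GM against GMP, and their part was not tested. Among the 7 genes the median was 0.11 in GMP against MkE and 0.00 in GM against GMP, and that of all genes -0.03 and 0.01.

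MkP did not differ from MkE in any of the 7 genes by the same limma call, and none had an unadjusted p under 0.05, where 2.96% of all genes were called higher and 8.55% lower. The smallest of these p-values was 0.0522, for Srgn, and the median of the 7 was 0.16 beside -0.08 for all genes. Of all calls 25.7% were higher, and 53.2% after quantile normalization. CFUE was lower than MkE in 2 genes, where 7.54% of all genes were called lower and 7.88% higher. Nkg7 fell by 5.93 ± 0.60 (adjusted p 3.30e-10), the largest drop of any member in these comparisons, and Srgn by 1.09 ± 0.12 (4.82e-09). Over the 7 genes the median was -0.26, and that of all genes 0.00. STHSC differed from LTHSC in none of the 7 by that call, where 2.06% of all genes were called higher and 4.75% lower, and 1 gene had an unadjusted p under 0.05. That gene was Nkg7, higher by 2.34 ± 0.78 with 9.60 and 9.68 in STHSC against 7.55 and 7.05 in LTHSC (adjusted p 0.0521, or 2.42e-06 with the PreB arrays left out). Of all calls 30.2% were higher, and 44.6% after quantile normalization. The median of the 7 was 0.19, and that of all genes -0.13.

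Around the 7 genes, the other parts of the pathway were counted from lists of known genes. Of 8 further granzymes, 2 passed the filter, and Gzmk was higher in NKmature than in CD4 by 3.39 ± 0.27 (adjusted p 6.32e-13) while Gzmm (0.77 ± 0.25, 0.0189) stayed under 2-fold. Probe sets of granzymes can bind RNA of more than 1 granzyme. Of 18 genes of granule loading, traffic and fusion tested, 4 were higher and 2 lower in NKmature than in CD4, where 11.8% of all genes were called higher and 8.60% lower. Higher were Vamp7, a vesicle fusion protein (1.58), Stx11, a syntaxin of granule release (1.37), Lyst, a regulator of lysosome size (1.30), and Ctsc, the protease that activates granzymes (1.24). Lower were the lysosomal proteases Ctsl (-3.67) and Ctsh (-2.17). Against CLP, 11 of the 18 were higher and 1 lower, beside 29.1% and 12.1% of all genes, shares that move with the scaling as given above. Stx11 (5.03), Ctsc (3.17) and Unc13d (1.96), a priming factor of granule release, were among the higher. On the ProB arrays 4 of the 18 were higher and 6 lower than in NKmature, beside 8.70% and 14.4% of all genes, with Ctsl (7.82) and Ctsh (6.82) far above and Stx11 (-2.62) and Lyst (-2.09) below. The list's median was 0.08 in NKmature against CD4 and 1.61 against CLP. For this list and those below, neutrophil and monocyte markers were also higher in NKmature than in CD4, as given above. Of the plasmacytoid dendritic markers, Bst2 (-2.56), Spib (-2.51) and Ly6d (-1.99) were lower in NKmature than in CD4. Tcf4 was higher (2.63), and Siglech was not called. The part of such cells in the list differences was not tested.

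Among 11 other death ligands and cytokines of killer cells, 5 were higher and 1 lower in NKmature than in CD4, beside 11.8% and 8.60% of all genes. The chemokines Xcl1 (5.85), Ccl3 (4.70), Ccl5 (4.41) and Ccl4 (2.72) and the receptor Cd160 (2.89) were higher, and lymphotoxin alpha, Lta, was lower (-2.54). Against CLP 9 of the 11 were higher and none lower, beside 29.1% and 12.1% of all genes, Ifng at 2.95 included. Of 12 genes of the target side, 3 were higher and 3 lower in NKmature than in CD4, beside the same 11.8% and 8.60%. Fas, the receptor of Fas ligand, was lower (-2.65), as were Casp8 (-1.64), the caspase it activates, and Cflar (-1.39), which holds that caspase back. The mitochondrial death genes Bid (1.73) and Bak1 (a 2.83-fold change) and the TNF receptor Tnfrsf1a (1.28) were higher. The list medians against CD4 were 0.71 and 0.30.

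Genes that restrain granzymes and cathepsins were higher in NKmature than in CD4 in 6 of 8 cases and lower in none, beside 11.8% and 8.60% of all genes. Serpinb9, the inhibitor of granzyme B, was higher by 3.93 ± 0.81 (adjusted p 2.40e-04) and Serpinb6b by 3.90 ± 0.92 (1.20e-03). The cystatins Cstb (1.24) and Cst7 (1.06) and the serpins Serpinb1a (1.08) and Serpinb9b (1.02) rose by less. Against ETP, Serpinb9 was higher by 5.15 and Serpinb1a fell by 4.66. The list's median was 1.07 against CD4. Of 12 transcription factors of killer cells, 8 were higher and 1 lower in NKmature than in CD4, beside the same shares of all genes. The T-box factors Eomes (4.62 ± 0.52) and Tbx21 (4.35 ± 0.27), Zeb2 (3.21), Id2 (2.39), Prdm1 (2.30), Runx3 (1.79), Irf2 (1.61) and Nfil3 (1.35) were higher, and Bach2 fell by 1.91. On the ProB arrays, Eomes (3.61) and Tbx21 (4.49) were higher than in PreB. Set against NKmature, Tbx21 fell there by 2.21 and Prdm1 by 4.12. The list's median was 1.70 against CD4.

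**Figure D4:**
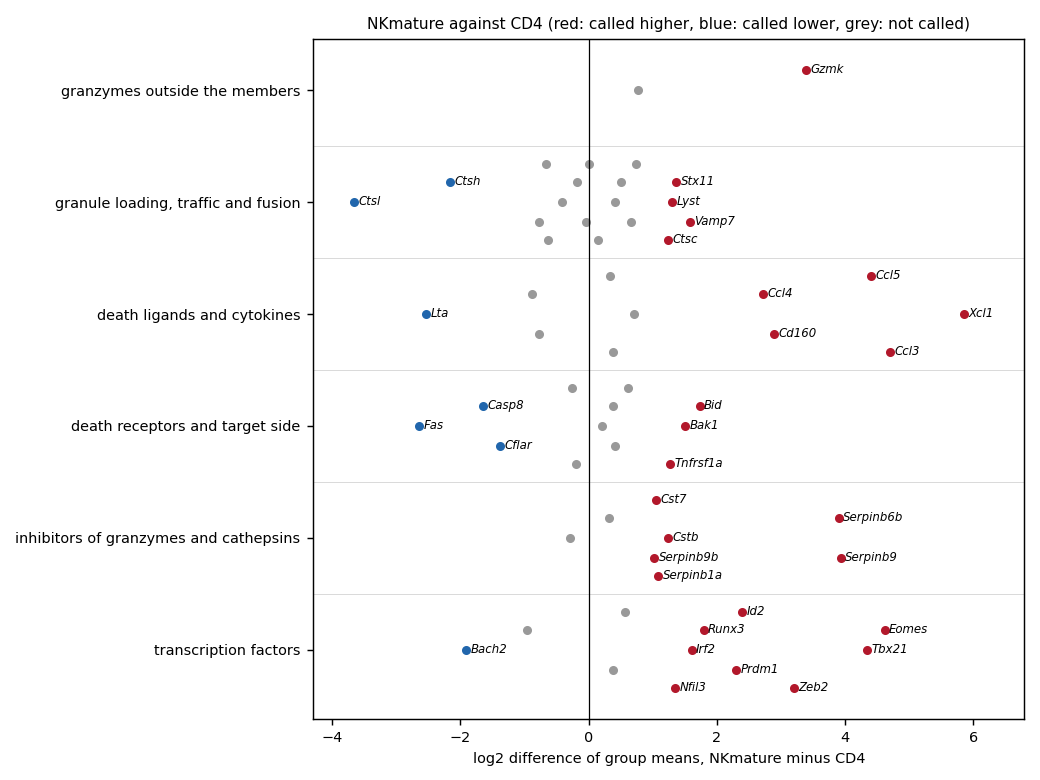
Difference of group means, NKmature minus CD4 (horizontal axis, log2), for the genes tested in 6 lists around the killing pathway (vertical axis), 1 point a gene, with called genes named. Inhibitors and transcription factors have 6 of 8 and 8 of 12 genes called higher, while granule traffic has 4 of 18 higher and 2 lower.

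The genes most like each member were found by Pearson's correlation of the 17 group means, a description over points that share their arrays. For Gzma they were the NK receptor genes Klre1 (0.99), Klrc1 (0.99) and Klra17 (0.98) with Eomes (0.98) and Xcl1 (0.98). For Prf1 they were Il2rb (0.99), a chain of the interleukin receptor of NK cells, Tbx21 (0.99), Gab3 (0.99), Crtam (0.98) and Ddx43 (0.97). Gzmb was closest to Klrb1a (0.93), Klrc1 (0.93), Il3ra (0.93), Prr5 (0.92) and Klrk1 (0.92). Fasl was closest to Klrd1 (0.92), Trbv1 (0.91), Gm38604 (0.89), Gprin3 (0.88) and S100a4 (0.88). Ctsw was closest to Pcbp4 (0.97), Il18r1 (0.94), Sfi1 (0.94), Padi2 (0.93) and Lzts1 (0.92). Among the genes named here, Pcbp4, Sfi1 and Prr5 were dim, with NKmature means of 4.76, 4.75 and 4.76. Their ProB means were 4.54, 4.31 and 4.31. Levels near the filter cannot be ranked, so the place of these genes is uncertain. How far single groups set the correlations was not tested. Nkg7 was closest to the cystatin Cst7 (0.90), then Calhm2 (0.89), Frmd4b (0.88), Camk2g (0.87) and Limk1 (0.85). Srgn was closest to Cbfb (0.88), the partner of Runx factors, then Vim (0.86), Arpc2 (0.85), Casp4 (0.85) and Hsd17b11 (0.85). Between the members the closest pairs were Gzma with Gzmb (0.92) and Gzma with Prf1 (0.91). Nkg7 correlated with the granzymes and Prf1 at 0.45 to 0.67, and Srgn with the other 6 at 0.01 to 0.51.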

How the data were processed

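RMA intensity values on a linear scale were deposited for each probe set and array. The series' design text names RMA, and a version or scaling is not given in the sources used here. Medians of the arrays lay between 13.8 and 16.9. Log2 was taken without a pseudocount. Of 45101 probe sets, 34958 have 1 gene symbol in the platform annotation, and a gene is represented by its brightest one (18194 genes). A gene was tested if the mean of any group exceeded 3.89, the overall log2 median (13949 genes). Groups follow the sample labels.

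A limma 3.58.1 model (R 4.3.3) of the 17 group means used all 47 arrays, with 30 residual degrees of freedom. Tests were two-sided, adjusted after Benjamini-Hochberg over all genes tested, and the procedure was checked on simulated data. The simulated arrays had the same spread in every group, so that check does not cover the wider spread within PreB. The 7 members, the lists and the tests were chosen with earlier results of these data known. Besides the members, the text names list genes that were called, markers, and the 5 genes most like each member by Pearson's correlation of group means. Gzmm, and which of the called list genes to give as examples, were chosen after their values were seen. List genes and markers without a named probe set were not analysed here.

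Alternatives changed the probe sets (their mean), the filter (none, or 5.97), the scaling (quantile normalization or centring on array medians), a floor of 16, the weights of arrays, and the spread (trended and robust). Others put in the replicate number or the array class by Xist (over 7) and Eif2s3y (over 5) as a block, fitted just the groups of a comparison, or left out 1 array. Fits without ProB or PreB arrays were added after seeing the data. Promoter windows are from RefSeq, GRCm38.p6.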

Additional observations from a re-analysis of the deposited data

Results flagged for a closer look

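The dim Prf1 probe set, which was not used for the gene, read 5.27 on PreB replicate 4, while the other 3 PreB arrays read 3.19 to 3.54. The gap of that array to the nearest other one was 0.83 of the range of the group. It was the 1 group set apart in this way of 27 tested groups of a probe set with 4 or more arrays, and chance flags about 1 in 20. On the probe set used for Prf1, the same array read 5.34, also the highest of the 4.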

How the results depend on the processing

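The count of members called kept within 1.5 times of its value, and its members their direction, under the alternatives tried except as follows, with all values log2 differences or counts of the 7 genes. With the Xist and Eif2s3y class of the arrays as a block, the count higher in NKmature than in CD4 was 3. ProB against NKmature then had 2 higher and 1 lower, with Gzma at 4.36, Gzmb at 0.93 and Nkg7 at 2.36. CD4 against ETP had 5 higher and 0 lower, with Gzmb at 1.21, Fasl at 0.00106 and Nkg7 at 1.84. IgM+SP against PreB had 5 lower, GMP against MkE 0 higher and 6 lower, with Gzmb at -1.02 and Nkg7 at -3.09, GM against GMP 5 higher, with Nkg7 at 2.72, and STHSC against LTHSC 1 higher. Members called under this block alone are given by these counts and not 1 by 1. By the construction of that block, its Xist against Eif2s3y term comes from the PreB arrays, the sole group with both classes, and carries their split. In fits of the compared groups alone, ProB against PreB had 3 higher, ProB against NKmature 5 lower, IgM+SP against PreB 0 lower, GMP against MkE 2 higher and GM against GMP 1 lower. IgM+SP against PreB had 0 lower with no filter, with a floor of 16, with a trended robust spread and with the replicate number as a block, and 2 lower after quantile normalization and after centring. STHSC against LTHSC had 1 higher with the stricter filter, quantile normalization, the floor and array weights, and array weights gave 2 higher in GMP against MkE and 1 lower in GM against GMP. Srgn, which was never called there, took the other sign in NKmature against CD4 after quantile normalization (-0.037), centring (-0.0078) and the class block (-0.0443), and against the mean of the other groups after quantile normalization (-0.0217). For these the cause was not tested.

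Leaving out 1 array in turn gave an Srgn difference of NKmature and CD4 of -0.0284 to 0.0482, with 1 to 2 members lower in CD4 against ETP, 0 to 1 lower in ETP against CLP and 0 to 4 lower in IgM+SP against PreB. Chosen after seeing the data were fits without PreB arrays. Without replicates 3 and 4, IgM+SP against PreB had 1 higher and 0 lower, with Gzma at 0.51, Gzmb at 0.19, Fasl at 0.12, Nkg7 at 1.29 and Ctsw at 0.32, and without replicates 1 and 2 it had 5 lower. Without all PreB arrays, ProB against NKmature had 5 lower, GMP against MkE 2 higher, GM against GMP 1 lower and STHSC against LTHSC 1 higher. Deviations of same-numbered replicates correlated at -0.397 to 0.377 over 29 pairs. Of the 3 comparisons with 3 or more pairs, 0 had all over 0.1. Those with 2 pairs, which can mirror each other, cannot settle pairing. As a block the number ended the calls of Gzma in IgM+SP against PreB (-1.86) and of Gzmb in CD4 against ETP (-1.02), and made the Fasl difference of NKmature and ETP a call (1.04).

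Counts over all genes moved by more than 1.5 times as follows, with the main count in brackets. The mean of all probe sets gave 1320 lower in ProB against NKmature (2009), 626 lower in ETP against CLP (999), 306 higher in IgM+SP against PreB (474), 234 higher and 726 lower in MkP against MkE (413 and 1193), 186 higher and 371 lower in STHSC against LTHSC (287 and 663) and 731 lower in NKmature against the mean of the other groups (1128). The stricter filter gave 1022 lower in NKmature against CLP (1693) and 528 in ETP against CLP (999). Quantile normalization gave 2549 higher and 2542 lower in NKmature against CLP (4063 and 1693), 1914 and 1856 in ETP against CLP (3075 and 999) and 727 and 639 in MkP against MkE (413 and 1193), and centring 562 lower in ETP against CLP (999). Array weights, whose iteration stopped before it converged, gave 182 higher and 358 lower in STHSC against LTHSC (287 and 663). The class block gave 2638 higher in NKmature against CD4 (1647), 1273 higher in CD4 against ETP (1940), 295 higher and 635 lower in IgM+SP against PreB (474 and 1315), 2399 higher in GMP against MkE (1223) and 1425 lower in GM against GMP (411). Fits of the compared groups alone gave 791 higher and 927 lower in ProB against PreB (1273 and 1556), 108 and 193 in IgM+SP against PreB (474 and 1315) and 1 and 2 in STHSC against LTHSC (287 and 663). Without 1 array, the counts were 430 to 464 higher and 245 lower in GM against GMP (698 and 411), 305 higher in IgM+SP against PreB (474), and 157 higher and 220 to 413 lower in STHSC against LTHSC (287 and 663). Without PreB replicates 3 and 4, IgM+SP against PreB had 1008 higher and 2537 lower (474 and 1315), and without replicates 1 and 2 it had 285 and 620, and ProB against PreB 1926 higher (1273).

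Most groups have 2 or 3 arrays, which limits the precision, and levels near the filter of 3.89 cannot be ranked. No sex, date or batch is given in the labels.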
